A study of Sorghum bicolor with 12 samples.

Results

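In leaves of Sorghum bicolor, the measured signal of 46 transcripts fell by more than 2-fold when heat and drought were imposed together. Their average fall in heat alone and in drought alone stayed under 1.5-fold. They were chosen from 28785 probes, 1 probe each. The log2 ratio of every treated array to its same-numbered Control array was taken from the table of normalized values. A probe was a member where this ratio was below -1 in all 3 Heat&Drought replicates, where its mean was above -0.585 in Heat and in Drought, and where every spot was well above background on the 3 Control arrays. The rule has used every array, so the combined fall and the small single-stress ratios of the members describe the choice and were not tested. The choice depends on the background correction: with another one, given below, 7 of the 46 met the rule. On the Heat&Drought arrays, 6 members were not well above background at all. Members are numbered 1 to 46 by their measured mean ratio in Heat&Drought, lowest first.

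The leaves came from seedlings of the R16 variety, in 4 groups with 3 arrays each, and every group was kept in the dark for 3 h before harvest. Heat&Drought seedlings had gone without water for 3 days from day 14 after sowing and were then held at 50°C. Heat seedlings were watered and held at 50°C, Drought seedlings were unwatered and held at 28°C, and Control seedlings were watered and held at 28°C. There were 6 plants per treatment, the youngest 3 leaves were taken, and the tissue of a treatment was pooled before RNA was made, so the spread between arrays is a spread between pools and not between plants.

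Sorghum is a C4 cereal of hot and dry regions. In the field, drought and heat often arrive together. Closing stomata saves water but also reduces the cooling that transpiration gives a leaf, and heat-stressed leaves shift their transcription and translation towards chaperones, so the stresses share part of their physiology. A transcript can fall because it is made more slowly or because it decays faster, and an array cannot tell these apart. In pooled leaf tissue, fewer cells of a type and less RNA per cell cannot be told apart either.

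Signal levels are given as the processed signal in percent of the 75th percentile of the same array, and all ratios are log2 differences of these levels unless the normalized table is named. The 75th percentile itself was 1329 to 1924 units on the Heat&Drought arrays, against 2407 to 2664 on Heat, 2582 to 2850 on Drought and 2302 to 3105 on Control arrays. The combined-stress arrays were therefore dimmer as a whole before scaling, and the part of this in the ratios of the members was not tested. On each array, 75% to 84.4% of spots were well above background and no spot was saturated. Of the 8 transcripts that could be matched to leaf marker words (enzymes of C4 carbon fixation, RuBisCO and its activase, light harvesting), 7 were well above background on all Control arrays, and their levels were spread widely. The RuBisCO small subunit lay at the 98.2 percentile of Control levels, the light-harvesting subunit LHCB6 at 89.5, the 2 carbonic anhydrases at 87.9 and 2.50, the 2 phosphoenolpyruvate carboxylases at 64.5 and 34.7, and RuBisCO activase at 34.5. The NADP-malic enzyme transcript among them was well above background on 1 of 3 Control arrays. This transcript, the carbonic anhydrases and the phosphoenolpyruvate carboxylases may not be the C4 forms. Only transcripts on the study's lists of stress responses could be matched, so the 8 do not stand for all leaf marker transcripts.

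The array files name the members only by transcript numbers of the sorghum annotation, and none of the 46 could be joined to a gene name. Member 1 is PACid:1954098 and member 2 is PACid:1955546. No function is therefore given for any member. Each could be placed on a chromosome, because 2964 other transcripts of the array were joined to sorghum gene identifiers and their numbers run along the chromosomes with 0 breaks in order. Of the 21292 probes well above background on all Control arrays, 275 could not be placed on a chromosome and are left out of the shares here. Chromosome 1 held 11 members (23.9%) and chromosome 2 also held 11 (23.9%), against 18.3% and 13.3% of the placed probes. Chromosome 6 held 7 members (15.2%), against 8.98% of those probes, chromosome 9 held 5 (10.9%), against 8.32%, and chromosome 4 held 4 (8.70%), against 11.7%. Chromosome 3 held 3 members (6.52%), against 14.6%, and chromosome 7 also held 3 (6.52%), against 6.55%. Chromosomes 5 and 8 held 1 each (2.17%), against 4.97% and 5.02%, and chromosome 10 held 0, against 8.29%. Members 20 and 44 were 2 numbers apart on chromosome 2, and the next closest members, 14 and 37 on chromosome 9, were 30 numbers apart. An immediate neighbour could be joined for 8 members, and members 1 and 2 are given as examples. Only transcripts on the study's lists of stress responses could be joined, so these neighbours do not stand for all neighbours. The 2 examples did not share one pattern. The neighbour of member 1, annotated as a putative thaumatin, had mean ratios of -2.30 in Heat&Drought and -1.64 in Heat. That of member 2, annotated as the amino acid permease AAP6, had mean ratios of 4.01 in Heat&Drought and 3.73 in Heat. The neighbours of members 10, 12, 17, 19, 24 and 25 had mean Heat&Drought ratios of -0.43, -2.43, 3.42, 4.26, 0.66 and 2.53. An adjacent number can also be another transcript of the same gene.

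Falls in combined stress were common, and falls limited to it were rare. In all 3 Heat&Drought replicates, 2776 probes detected in Control fell below -1. Of these, 2587 (93.2%) had a mean Heat ratio at or below the 1.5-fold ceiling and 1832 (66.0%) had such a mean Drought ratio. Both single stresses passed the ceiling for 1689 probes, only Heat for 898 and only Drought for 143. Neither passed it for the 46 members, which is 1.66% of the probes that fell and 0.216% of the probes detected in Control. A wider definition asks only that neither single stress passed 2-fold in all 3 replicates, and 1144 probes met it, of which the members are 4.02%. The mirrored rule for rises gave 74 of 3003 probes (2.46%).

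**Figure D1:**
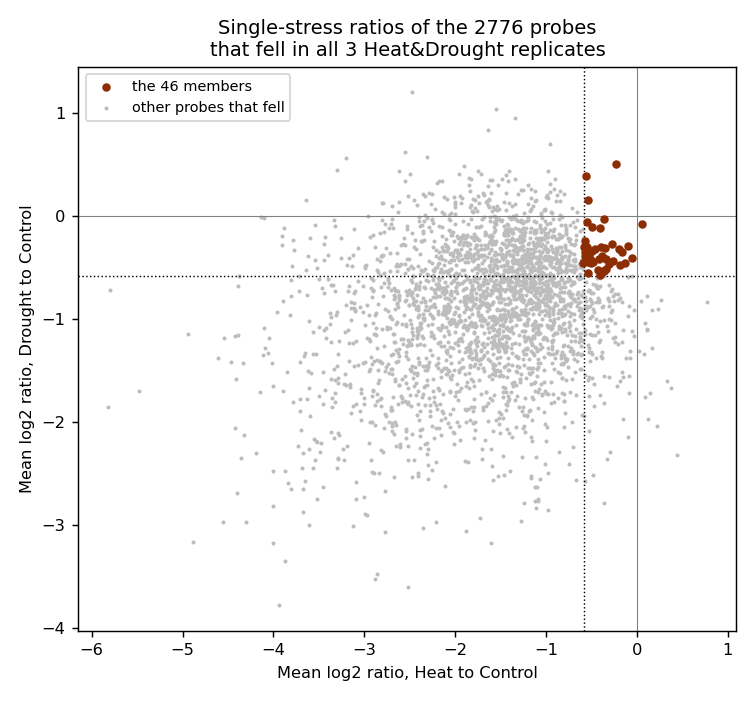
Mean log2 ratio to Control in Heat (x axis) and in Drought (y axis) for the 2776 probes that fell below -1 in all 3 Heat&Drought replicates, with the 46 members in dark red, the other probes in grey, and dotted lines at the 1.5-fold ceiling. The members fill the upper right corner next to the ceiling, between mean Heat ratios of -0.59 and 0.05 by the array files, which differ slightly from the normalized table that set the choice.

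The members lie close to the limits of the rule. In the normalized table, the weakest combined ratio inside the limit was -1.01, held by member 10, and the first value outside was -0.9998. The lowest mean Heat ratio inside was -0.580, held by member 6, against -0.585 for the first probe outside. For Drought, member 32 was the last inside at -0.577, and the first probe outside had -0.586. Values ran on across each limit without a gap.

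As a group, the members fell 2.78-fold at the median in Heat&Drought. The median of their mean ratios was -1.48, with members between -2.19 and -1.11, and the median of all probes detected in Control was -0.16. In Heat, the members had a median of -0.44, against -0.15 for all detected probes, and in Drought it was -0.38, against -0.12. Most members were thus a little below Control in each single stress. The mean Heat ratio was below 0 for 45 members and the mean Drought ratio for 43. In Heat, 26 members were below Control in all 3 replicates, where 43.5% of all detected probes were. In Drought, 37 members were, where 42.5% of all detected probes were. Within 1.2-fold of Control on average were 9 members in Heat and 7 in Drought, and only 2 members met the rule with a 1.2-fold ceiling on both.

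**Figure D2:**
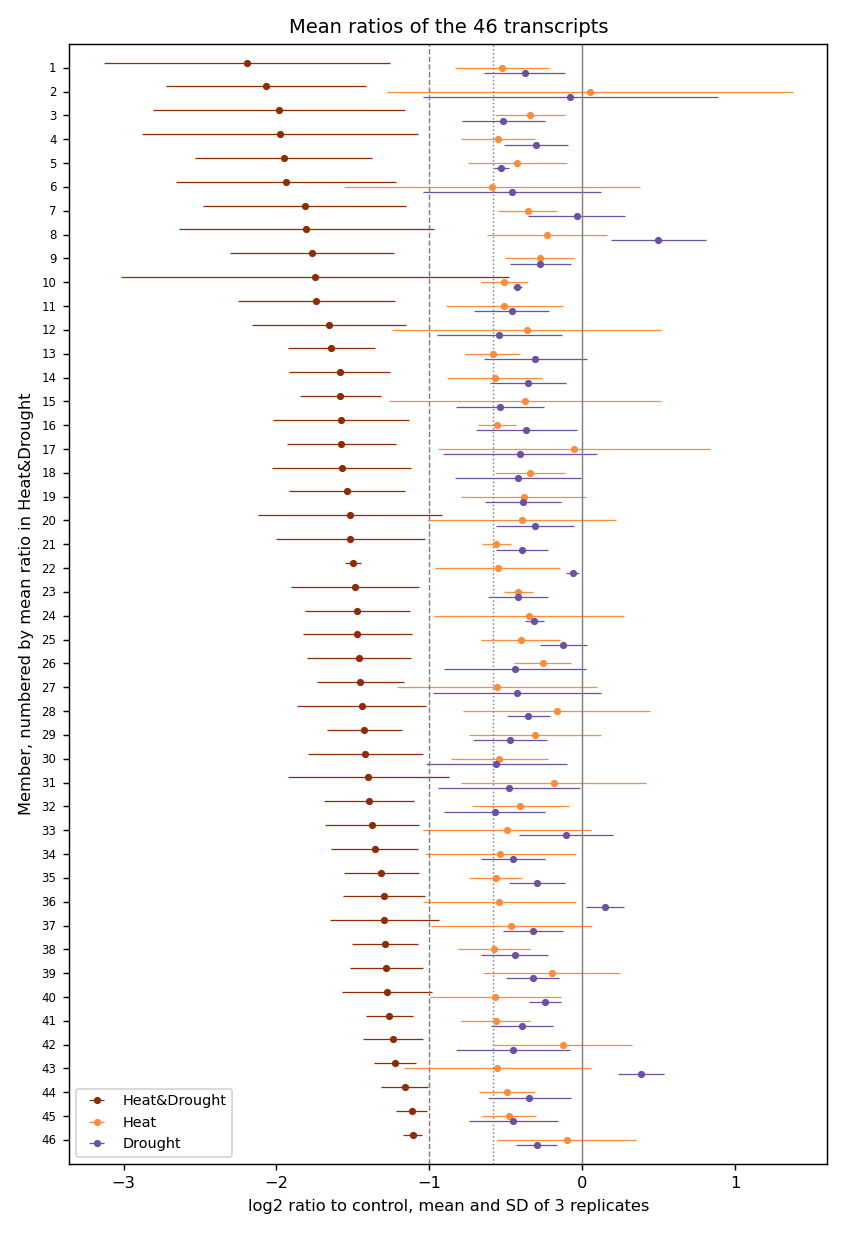
Mean log2 ratio to Control with its SD over 3 replicates (x axis) for each member (y axis, numbered by mean ratio in Heat&Drought), in Heat&Drought, Heat and Drought; the dashed line is a 2-fold fall and the dotted line the 1.5-fold ceiling. Combined-stress means run between -2.19 and -1.11, and only members 2 (Heat) and 8, 36 and 43 (Drought) have a single-stress mean above 0.

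The 3 replicates, each on a slide of its own with 1 array of every group, did not weigh equally. The median combined ratio of the members was -1.48 in replicate 1, -1.17 in replicate 2 and -1.69 in replicate 3. The fall was deepest in replicate 3 for 23 members and in replicate 1 for 18, and it was weakest in replicate 2 for 28. Heat ratios were highest in replicate 1, where the median was -0.12 and 17 members were above Control, against medians of -0.66 in replicate 2 and -0.59 in replicate 3. In Heat, 28 members passed the 1.5-fold ceiling in replicate 2 and 23 in replicate 3, against 1 in replicate 1. For 24 members the mean of Heat replicates 2 and 3 alone was past the ceiling. Drought ratios had medians of -0.29, -0.20 and -0.55 in replicates 1, 2 and 3, with 20 members past the ceiling in replicate 3.

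**Figure D3:**
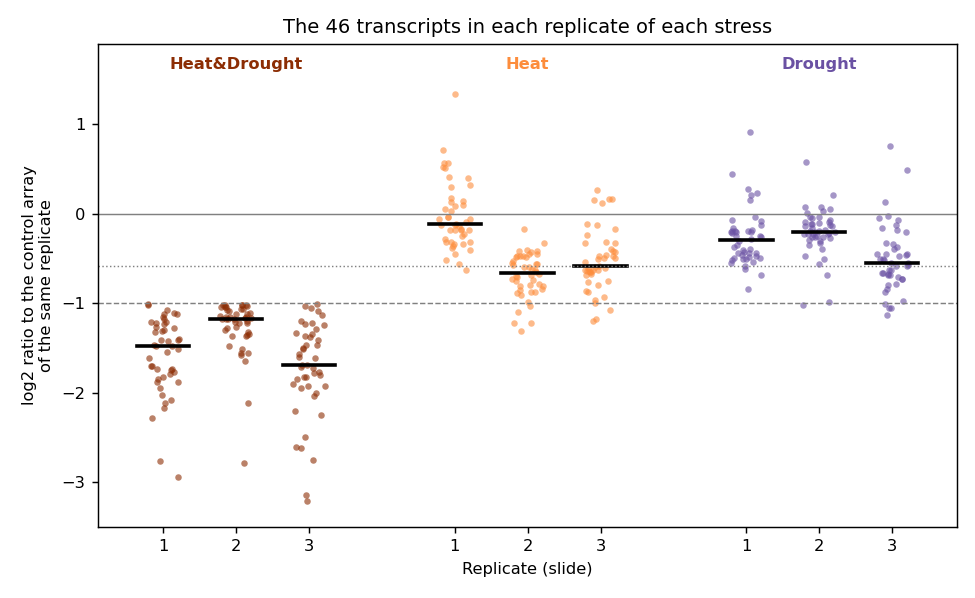
Log2 ratio of each treated array to the Control array of the same replicate (y axis) for the 46 members in replicates 1 to 3 of Heat&Drought, Heat and Drought; black bars are medians, the dashed line is a 2-fold fall and the dotted line the 1.5-fold ceiling. Heat replicate 1 lies highest of the 3 Heat replicates, with a median of -0.12, and Heat&Drought replicate 2 is the weakest of the combined replicates, with a median of -1.17.

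Whether the pattern returns in arrays that did not choose it was read by applying the rule to 2 replicates and measuring the third. Choosing on replicates 2 and 3 gave 38 probes, of which 35 (92.1%) were below -1 in Heat&Drought of replicate 1, where 24.8% of all detected probes were. Choosing on replicates 1 and 3 gave 177 probes, and 54 of them (30.5%) were below -1 in replicate 2, against 21.3% of detected probes. Choosing on replicates 1 and 2 gave 174 probes, and 126 (72.4%) were below -1 in replicate 3, against 24.8% of detected probes. The fall in combined stress was therefore found again in replicates 1 and 3 well above the share among all probes, and in replicate 2 only a little above it. All 3 conditions at once were met again by fewer. They held for 17 of 38 probes (44.7%) in replicate 1, 10 of 177 (5.65%) in replicate 2 and 14 of 174 (8.05%) in replicate 3, against 4.13%, 0.775% and 1.68% of detected probes. Taken alone, the limits on both single stresses were met less often than among all probes in replicate 3, as was the Drought limit in replicate 1. Elsewhere the shares were close to those of all probes. In Heat, 71.1%, 67.2% and 42.0% of the chosen probes were above the ceiling in left-out replicates 1, 2 and 3, against 71.6%, 66.2% and 67.1% of detected probes. In Drought, 68.4%, 89.8% and 40.8% were, against 80.0%, 90.0% and 68.1%. Counted only over probes below -1 in Heat&Drought of the left-out replicate, both single-stress ratios were above the ceiling for 48.6%, 18.5% and 11.1% of the chosen probes, against 16.6%, 3.63% and 6.78% of detected probes. In the left-out replicate 3, the chosen probes had median ratios of -1.69 in Heat&Drought, -0.65 in Heat and -0.73 in Drought.

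**Figure D4:**
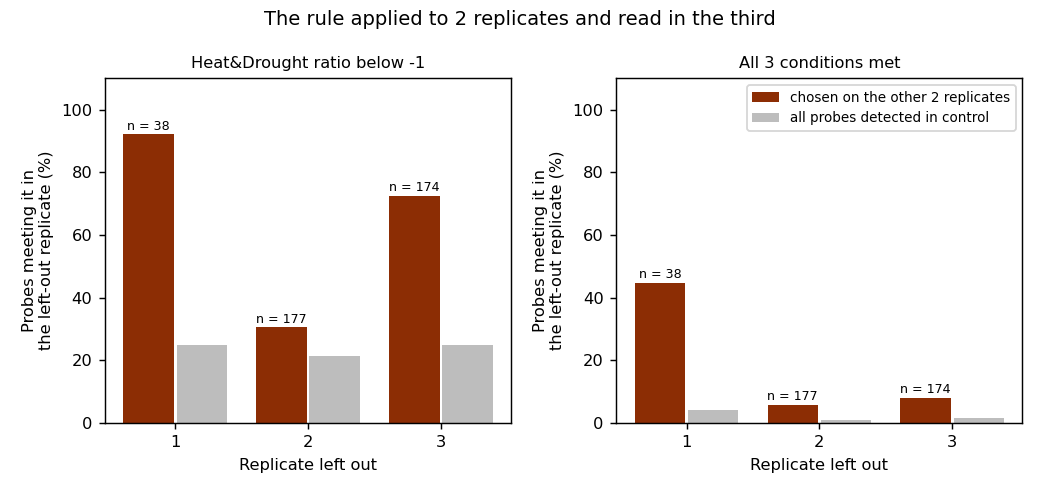
Share of probes (y axis, percent) that met the combined-stress threshold (left) or all 3 conditions (right) in the replicate left out (x axis), for probes chosen on the other 2 replicates in dark red and all probes detected in Control in grey, with the number chosen above each bar. The shares for the chosen probes were 92.1%, 30.5% and 72.4% on the left and 44.7%, 5.65% and 8.05% on the right.

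Member 1 had the lowest ratio among the members well above background on all combined arrays. Its level was 6.83%, 18.4% and 4.23% of the 75th percentile on the Heat&Drought arrays, 27.3%, 26.5% and 23.5% in Heat, 26.0%, 38.4% and 23.2% in Drought, and 30.8%, 44.1% and 37.3% in Control. All combined-stress arrays were below all others, and the fall was uneven, at -2.17, -1.26 and -3.14 in replicates 1, 2 and 3. Its mean ratio was -2.19 ± 0.94 in Heat&Drought, -0.53 ± 0.31 in Heat and -0.38 ± 0.27 in Drought (SD, n = 3).

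Member 3 had the same shape. Its levels were 5.56%, 11.4% and 3.98% in Heat&Drought, 24.8%, 18.8% and 16.3% in Heat, 19.2%, 19.6% and 14.0% in Drought, and 27.1%, 23.5% and 24.4% in Control. Control arrays agreed closely for it, and the spread came from the combined arrays, with a mean ratio of -1.98 ± 0.83 (SD, n = 3).

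Member 7 was well expressed. It stood at 35.1%, 61.6% and 19.9% in Heat&Drought, 106%, 93.7% and 90.0% in Heat, 139%, 147% and 85.3% in Drought, and 120%, 139% and 112% in Control. Drought left it near Control on average, with a mean ratio of -0.04 ± 0.32, and the combined fall averaged -1.81 ± 0.66 (SD, n = 3). Its 3 combined arrays lay below the other 9.

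Member 5 fell with 4.40%, 4.68% and 2.06% in Heat&Drought, against 11.8%, 7.75% and 11.1% in Heat, 9.78%, 9.45% and 8.86% in Drought, and 14.6%, 13.4% and 12.5% in Control. The groups did not overlap between Heat&Drought and any other. Member 6 had 10.9%, 22.5% and 10.5% in Heat&Drought, 41.9%, 30.1% and 33.9% in Heat, 26.1%, 65.9% and 32.4% in Drought, and 29.1%, 70.3% and 71.2% in Control. Here Control itself was spread, and the Heat ratio was 0.53 in replicate 1 but -1.22 and -1.07 in replicates 2 and 3.

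Member 10 owed its low mean to 1 array. Its levels were 81.1%, 86.5% and 15.6% in Heat&Drought, 129%, 118% and 93.6% in Heat, 121%, 133% and 106% in Drought, and 163%, 175% and 145% in Control. The ratios were -1.01, -1.02 and -3.21, so replicates 1 and 2 lay at the limit of the rule. Its SD of 1.27 was the highest among the combined ratios of the members.

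The 5 members with the highest Control levels were members 16, 25, 30, 10 and 45, and their mean combined ratios ran between -1.75 and -1.11. Member 16, at the 88.9 percentile of Control levels, had 118%, 179% and 103% in Heat&Drought, 312%, 297% and 197% in Heat, 329%, 399% and 206% in Drought, and 481%, 395% and 305% in Control. Member 25 had 52.1%, 79% and 70.0% in Heat&Drought, 175%, 145% and 105% in Heat, 156%, 189% and 162% in Drought, and 192%, 194% and 165% in Control. In both, the combined arrays were below every other array, and for member 25 Drought was close to Control in replicates 2 and 3.

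Member 45 had 66.2%, 77.4% and 65.5% in Heat&Drought, 117%, 109% and 98.6% in Heat, 112%, 134% and 88.8% in Drought, and 143%, 157% and 153% in Control. Its mean combined ratio of -1.11 ± 0.10 was followed by -0.48 ± 0.18 in Heat and -0.45 ± 0.29 in Drought (SD, n = 3), so the single-stress means add up to most of the combined one. Member 30, with 63.6%, 88.2% and 53.2% in Heat&Drought, 148%, 116% and 106.95% in Heat, 120%, 165% and 89.2% in Drought, and 169%, 182% and 185% in Control, was of the same kind.

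The neighbours on chromosome 2, members 20 and 44, did not have the same size of fall. Member 20 had 15.8%, 28.4% and 11.7% in Heat&Drought, 46.7%, 33.0% and 35.3% in Heat, 35.8%, 50.3% and 35.9% in Drought, and 37.9%, 60.4% and 53.8% in Control. Member 44 had 37.9%, 48.3% and 46.7% in Heat&Drought, 73.5%, 66.4% and 70.7% in Heat, 82.9%, 94.6% and 59.6% in Drought, and 94.5%, 108% and 94.1% in Control. The mean combined ratio was -1.52 ± 0.60 for member 20 and -1.16 ± 0.15 for member 44 (SD, n = 3).

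**Figure D5:**
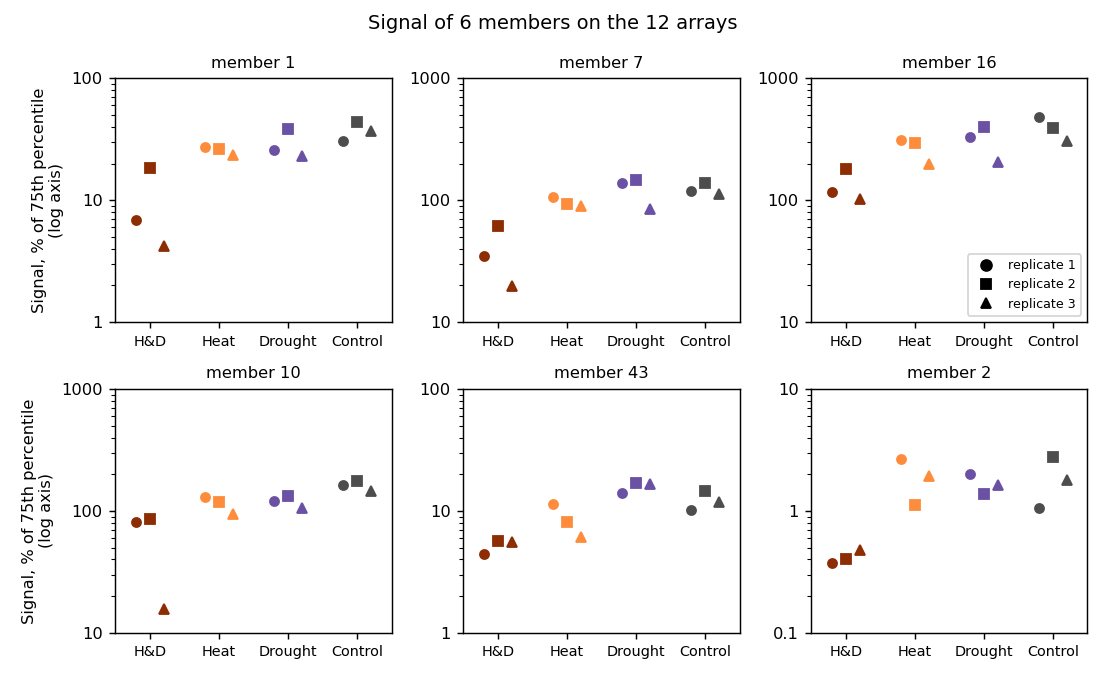
Signal in percent of the 75th percentile of the array (y axis, log scale) of members 1, 7, 16, 10, 43 and 2 on the 3 arrays each of Heat&Drought (H&D), Heat, Drought and Control, with a marker for each replicate. The Heat&Drought points lie below all others in each panel, for member 10 by the most in replicate 3, and those of member 2 lie between 0.372% and 0.479%, where the signal was not well above background.

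In 3 members, the Drought level was above Control in every replicate. Member 8 had 0.609%, 1.12% and 1.25% in Heat&Drought, 3.54%, 1.87% and 3.40% in Heat, 4.62%, 4.30% and 5.15% in Drought, and 4.14%, 2.88% and 3.04% in Control. Its Drought mean of 0.50 ± 0.31 was the highest among the members (SD, n = 3). Member 43 had 4.41%, 5.65% and 5.55% in Heat&Drought, 11.3%, 8.07% and 6.06% in Heat, 13.9%, 16.8% and 16.6% in Drought, and 10.2%, 14.5% and 11.8% in Control. Its Drought arrays overlapped with Control only at 13.9% against 14.5%, and its Heat ratios were 0.15, -0.85 and -0.96 in replicates 1, 2 and 3. Member 36, with 3.12%, 4.05% and 1.95% in Heat&Drought, 6.94%, 5.27% and 3.25% in Heat, 8.20%, 9.33% and 6.52% in Drought, and 6.77%, 9.13% and 5.93% in Control, was the weakest of them, at a mean Drought ratio of 0.15 ± 0.12 (SD, n = 3). limma called no Drought difference from Control in either direction for any member (0 of 46). Among all 22715 probes it called 193 lower and 970 higher, so such calls were few in general.

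Heat alone left a few members near Control on average. After member 2, the highest mean Heat ratios were -0.05 ± 0.89 for member 17, -0.10 ± 0.45 for member 46, -0.13 ± 0.45 for member 42 and -0.17 ± 0.61 for member 28 (SD, n = 3). These SDs exceed the means, and each of the 4 was above Control in at least 1 Heat replicate and below it in another. Member 46 had 4.47%, 8.83% and 5.48% in Heat&Drought, 13.2%, 13.1% and 10.2% in Heat, 8.68%, 15.3% and 8.81% in Drought, and 9.95%, 18.1% and 12.0% in Control. Its combined ratios were the most shallow among the members, at -1.15, -1.04 and -1.14, and 1 of its combined arrays was not below all others. Member 22 was the steadiest in combined stress, at -1.47, -1.56 and -1.46, while its Drought ratios were -0.03, -0.11 and -0.05. It was not near Control in Heat, with ratios of -0.09, -0.88 and -0.69.

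Many members are dim. The median member lay at the 29.4 percentile of Control levels, against 51.05 for all probes that fell, and 33 of 46 were below the 50th percentile and 14 below the 25th, with 0 above the 90th. All members were well above background in Drought and 45 in Heat on all 3 arrays, but only 35 were so in Heat&Drought, where 92.3% of all detected probes and 78.3% of all probes that fell were. A further 5 members were measured on 1 or 2 of the combined arrays, with members 9, 28 and 39 on 2 and members 29 and 37 on 1.

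For the 6 members that were not well above background on any Heat&Drought array, the fall has only a lower bound. The bound sets the mean Control level against the mean, over the combined arrays, of the lowest signal well above background or the probe's own signal where that was higher. Member 2 was lower by at least 1.42-fold, member 4 by at least 1.54-fold, member 8 by at least 2.65-fold, member 12 by at least 1.15-fold, member 15 by at least 2.53-fold and member 17 by at least 1.89-fold. Of these 6, only members 8 and 15 reached 2-fold by this bound. The lowest signal is that of any probe and need not be the detection limit of the member. With the normexp background correction given below, the mean Heat&Drought ratios of members 8 and 15 were only -0.13 and -0.09. Those of members 2, 4, 12 and 17 were positive there. A fall of 2-fold in any of the 6 thus depends on the background correction. Member 2 had 0.372%, 0.400% and 0.479% in Heat&Drought, 2.69%, 1.12% and 1.95% in Heat, 1.998%, 1.37% and 1.64% in Drought, and 1.06%, 2.77% and 1.79% in Control. Its Heat ratios of 1.34, -1.31 and 0.12 averaged 0.05 ± 1.33 (SD, n = 3), which is no level near Control but a spread across it. Member 4 had 0.296%, 0.924% and 0.408% in Heat&Drought, 1.80%, 1.17% and 1.02% in Heat, 1.76%, 1.49% and 1.38% in Drought, and 2.27%, 2.06% and 1.44% in Control, all close to the background. Without these 6 members and the 5 measured in part, the median ratios were -1.47 in Heat&Drought and -0.51 in Heat.

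Set directly against each single stress on the same slide, combined stress was lower for every member, which the limits of the rule favour. Heat&Drought was below Heat in all 3 replicates for 46 of 46 members, where 29.6% of all detected probes were, and below Drought for 46 of 46, where 34.4% were. The difference from Heat was uneven, with medians of -1.54, -0.54 and -1.09 in replicates 1, 2 and 3, and 41, 2 and 27 members below -1. Only 1 member differed from Heat by more than 2-fold in all 3. The difference from Drought was steadier, with medians of -1.26, -1.001 and -1.18, and 16 members were below -1 in all 3. For 38 members, the 3 combined arrays lay below all 9 others, which held for 4.49% of all detected probes and 18.3% of the probes that fell.

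On average over replicates, the combined ratio of all 46 members was also deeper than the sum of their single-stress ratios, which the limits of the rule again favour. The sum of the mean Heat and Drought ratios had a median of -0.82 over the members, and it was below -1 for 3 members. What remained after subtracting both from the combined ratio had a median of -0.76, was nearest to 0 for member 45 (-0.18), and was below 0 in all 3 replicates for 34 members, where 23.0% of all detected probes were. Over all 2776 probes that fell, the same remainder had a median of 0.26. For the members, it was -1.21 in replicate 1, -0.32 in replicate 2 and -0.55 in replicate 3. Among the members well above background on all combined arrays, it was lowest for members 7 (-1.42) and 1 (-1.29). The values of -2.08 for member 8 and -2.04 for member 2 rest on combined signals that were not well above background and have no place in this order.

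In the limma fit over all 22715 probes, with adjusted p-values, 46 of 46 members were called lower in Heat&Drought than in Control, where 26.3% of probes were. The rule used these contrasts, so the counts only describe the members. Against Heat, 14 members were called lower (1.57% of probes), and 41 were with the slide as a block (7.78% of probes). Against Drought, 39 members were called lower (15.0% of probes). In Heat against Control, 2 members were called lower (20.5% of probes), members 22 and 35, and 8 with the slide as a block (25.6% of probes). In Drought against Control, limma called 0 members lower (0.850% of probes), with 1 at an unadjusted p under 0.05 (13.2% of probes) and 3 with the slide as a block (19.4% of probes). The remainder after both single stresses, tested as the interaction, was called for 0 members and for 0.00% of probes by limma, and the lowest adjusted p among the members was 0.25. At an unadjusted p under 0.05 it was lower for 10 members (5.11% of probes). With the slide as a block, limma called 0 members again (0.00440% of probes), with a lowest adjusted p of 0.14, and 21 members were at an unadjusted p under 0.05 (6.77% of probes). A departure from the sum of the single stresses was therefore not shown for any one member.

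Another background correction changed the picture for many members. With normexp on the spot median and an offset of 50, the members had a median of -0.82 in Heat&Drought and 0.21 in Heat. The median of all detected probes in Heat was 0.25 with it, and 29 members were above Control there. limma called 5 members higher in Heat, and 5928 of all 22715 probes. It called 21 members lower in Heat&Drought (17.0% of probes). Under it, 48 probes met the rule, of which 7 were among the 46. Over the 35 members well above background on all combined arrays, it gave medians of -1.02 in Heat&Drought and 0.07 in Heat, and all 35 stayed below 0 in Heat&Drought.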

How the data were processed

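The authors extracted each array with Agilent Feature Extraction 10.7 and deposited spot intensities (processed signal, median signal, local background, flags), not normalized between arrays. A second deposited file holds normalized log2 values from GeneSpring GX 11 (its standard scenario for 1-colour arrays). The 60-mer probes were designed on sorghum coding sequences.

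Members were chosen on the deposited log2 table. All other values used log2 processed signal minus the 75th percentile of the array's 43803 non-control spots, without flagged spots, spots of a probe averaged. No member had a flagged spot or a second probe, and 21 members had 2 spots. limma 3.58.1 (R 4.3.3) was fitted with 4 group means on 22715 probes well above background on all arrays of at least 1 group; calls had a Benjamini-Hochberg adjusted p under 0.05. The ratios, counts and figures were made in python 3.11.15 (scipy 1.17.1, pandas 2.3.3, numpy 2.4.6). The fit was tested on simulated data.

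Replicate numbers mark the slide, per the array files. Over 19349 probes, 17 of 18 same-numbered pairs of arrays deviated together with a correlation above 0.1 (0.04 to 0.62). The 12 arrays limit the precision.

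Transcript numbers were joined to gene identifiers by matching fold changes of the study's lists to the deposited ratios within 6e-05 on the log2 scale; the values of the lists were not otherwise used. As no member was joined, gene lists, the transcription factors of interest and promoters were not analysed here. Named members were to be the 10 deepest, the 5 on each side of each limit, any with an annotation, the 5 highest in Heat and in Drought, the 5 with the highest Control level and the 5 with the lowest interaction; members 20, 29, 35, 37 and 39 fall outside these and were named after their values were seen. The rule, the members and all lists were chosen with earlier results of these data known. Alternatives were other scalings, a background correction, filters, limits, a replicate block and leaving out each replicate.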

Additional observations from a re-analysis of the deposited data

Results flagged for a closer look

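In 3 members the effect of withholding water ran in opposite directions at 50°C and at 28°C, in every replicate. The limits of the rule favour the fall at 50°C, where Heat&Drought was below Heat in all 3 replicates for 46 of 46 members. What sets the 3 apart is thus the Drought level, which was above Control in every replicate. The share of all probes with opposite directions was not counted. The difference between the temperatures was not tested beyond the limma interaction, which called none of the 3. Member 8 had a mean log2 difference of -1.58 between Heat&Drought and Heat, and of 0.50 between Drought and Control, but it was not well above background on any Heat&Drought array. Member 36 had -0.76 at 50°C and 0.15 at 28°C. Member 43 had -0.67 at 50°C and 0.38 at 28°C, and it was well above background on all 12 arrays.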

How the results depend on the processing

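The number of members was 47 on the array files, 50 with median centring, 48 with normexp, 62 with quantile normalization, 48 without the filter, 35 with all 12 arrays above background and 43 against the mean of the controls. Of these, 44, 27, 7, 32, 46, 35 and 27 were among the 46. It was 0 at a 3-fold threshold, 2 with a 1.2-fold ceiling, 1144 by the 2-fold rule, and 38 to 177 without 1 replicate (22 shared without replicate 1, 33 without replicate 2, 42 without replicate 3). Members called lower by limma in Heat&Drought against Control were 21 with normexp (3854 of all 22715 probes) and 19 to 45 without 1 replicate. Without replicate 1 they were 19 (1817 of all probes), without replicate 2 they were 45 (4800) and without replicate 3 they were 41 (5106). With all replicates, 46 members and 5977 of all probes were called, so calls fell among all probes as well. Against Heat they were 41 with the replicate block (7.78% of all probes), 1 with normexp (0.251%) and 8 without the filter (0.472%). They were 0 without replicate 1 (0% of probes) or replicate 3 (0.0308%), and 26 without replicate 2 (5.14%). Against Drought they were 11 with normexp (6.99% of all probes), 3 without replicate 1 (1.37%), 18 without replicate 2 (7.61%) and 27 without replicate 3 (16.1%). In Heat against Control they were 8 with the replicate block (5804 of all 22715 probes) and 1 on the normalized table (4614). With quantile normalization (5000 of all probes), with normexp (2433) and without the filter (4363 of 28785) they were 0. Leaving out replicate 1 (1488 of all probes), replicate 2 (2905) or replicate 3 (3839) also gave 0 members. The rule limited the mean fall in Heat, so these low counts only describe the members. The replicate block moved no other count of members called at an adjusted p by over 1.5 times; at an unadjusted p it gave 21 members against 10 for the interaction and 3 against 1 in Drought. The median Heat&Drought ratio was -0.82 and the median Heat ratio 0.21 with normexp, and the mean Heat&Drought ratio then turned to 0.22 for member 2, 0.086 for member 4, 0.29 for member 12 and 0.085 for member 17; the cause was not tested. Scaling moved the median of all detected probes in Heat&Drought, which was -0.16 by the 75th percentile, -0.04 by median centring, -0.24 by quantile normalization and 0.02 with normexp; in Heat with normexp it was 0.25. Of 651 values of single members under the alternatives, 603 moved by less than 1 SD, 44 moved by more and 4 combined values changed sign. The 4 are not all changes of sign, because single-stress values that changed sign are counted in the other classes. With normexp, the mean Heat ratio of member 4 went from -0.55 to 1.13, and 29 members were above Control in Heat, against 1 by the 75th percentile. The 603 are no measure of stability, because leaving out 1 of 3 replicates cannot move a mean by 1 SD. Signals near background limit members 2, 4, 8, 12, 15 and 17 most.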
